A study of Mus musculus with 9 samples.

Results

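Natural killer (NK) cells sorted from lymph node were compared with NK cells sorted from the spleen of BALB/c mice that were naive and 6 to 8 weeks old. The comparison used 3 of the 9 arrays in the study, 1 array of lymph node NK cells and 2 arrays of spleen NK cells, numbered 1 and 2. The other 6 arrays held conventional dendritic cells (CDC) and interferon-producing killer dendritic cells (IKDC), each with 2 spleen arrays and 1 lymph node array. They were used to see which organ differences were also found outside NK cells. No group carried a transgene or deletion or received an agent according to the labels, and all cells were fresh from the organ. The labels name no sorting gate, lymph node site or number of pooled animals.

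The genes described are those for which the lymph node NK array lay at least 1 log2 unit, which is 2-fold, above or below both spleen NK arrays. Levels are log2 of the Affymetrix signal intensity plus an offset of 6.49 intensity units, quantile normalized, with 1 probe set per gene. Of 18193 genes, 1065 met the rule (5.85%). Of these, 471 passed a filter on low signal, a mean level over the 9 arrays of at least 5.31, and 594 did not. Among the 10916 genes that passed the filter, 233 lay above (2.13%) and 238 lay below (2.18%). These counts describe the rule and carry no test. In the values as deposited, without quantile normalization, 286 lay above and 191 below. With spleen NK array 1 left out, 1156 genes lay at least 1 log2 unit from array 2, and with array 2 left out 1215 lay that far from array 1. A median difference of 3.01-fold was found for the 233 genes above and of 2.85-fold for the 238 genes below. For these medians, levels under 5.31 were used as they stood. At the edge of the rule, Cblc lay 1.00 log2 units below the nearer spleen array and was included, and Klhl42 lay 0.999 above and was not.

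NK cells are innate lymphocytes that kill infected or transformed cells with perforin and granzymes and secrete interferon gamma. They mature in stages, and as they mature they gain Klrg1 and Cd11b and the egress receptor S1pr5 while losing Cd27. Lymph node is known to hold relatively more of the earlier stages and of cells that carry the interleukin 7 receptor than spleen or blood do.

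Where 3 NK levels are given below, they stand in the order spleen NK array 1, spleen NK array 2 and lymph node NK. Counts within a gene list can be read against 2.13% above and 2.18% below among all filtered genes. The lymph node NK array carried the defining NK transcripts near the spleen level. Ncr1, which encodes the activating receptor NKp46, had levels of 11.62 and 12.18 on spleen NK arrays 1 and 2 and 11.79 on the lymph node array. Eomes, a T-box factor of mature NK cells, had levels of 11.98 and 12.30 in spleen and 11.70 in lymph node. Tbx21, which encodes the T-box factor T-bet, had levels of 11.38 and 11.65 in spleen and 11.53 in lymph node. The same 3 genes had levels of 6.22, 7.16 and 6.93 on the lymph node CDC array. Across the 10916 genes, the lymph node NK array correlated with spleen NK arrays 1 and 2 at r = 0.927 and 0.935, and the spleen arrays correlated with each other at r = 0.939. Genes are not independent replicates, so these are descriptions.

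The spleen NK arrays also differed from each other, by over 2-fold in 901 of the 10916 genes. Xist, the RNA that silences one X chromosome in female cells, had a level of 6.36 on spleen NK array 1, 11.96 on array 2 and 12.19 on the lymph node array. The Y-linked Eif2s3y had levels of 9.40, 3.65 and 3.29, so array 1 stood apart from the others in both. The spleen CDC and IKDC arrays split by number in the same way, with Xist at 6.02 and 6.07 on arrays 1 and at 12.49 and 11.43 on arrays 2. Itgax, which encodes Cd11c, had a level of 11.32 on array 1 against 7.27 on array 2 and 8.19 in lymph node. The lysozyme gene Lyz1 had levels of 6.70, 11.37 and 10.68. These genes did not meet the rule, because the lymph node array had to lie outside both spleen arrays. The part of sex or of carried-over cells in the other differences was not tested. The 3' to 5' signal ratio of the actin control, a sign of RNA quality, was 2.35 and 1.62 in spleen NK and 1.39 in lymph node NK.

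No single gene passed the unblocked test between the organs. In limma, with the lone lymph node array assumed to vary like the spleen pairs, 0 of 10916 genes were called between lymph node and spleen NK (0%) at an adjusted p under 0.05. The smallest adjusted p in that limma test was 0.0676, shared by Itgae and Nr4a1, and 628 genes had an unadjusted p under 0.05 where chance gives 546. With the replicate number as a block, 3 to 15 genes were called, depending on the number under which the unnumbered lymph node arrays are counted, and Atf3, Itgae and Nr4a1 were called in each of these 3 fits. A permutation of 1 array against 2 cannot go below p = 0.333. In the same limma model 3 genes (0.0275%), Nr4a1, Ccl3 and Pglyrp2, were called between the organs in CDC, all lower in lymph node, and 0 (0%) in IKDC. The test of whether the organ difference in NK differed from the mean of CDC and IKDC called 0 genes (0%), with a smallest adjusted p of 0.847 and 369 genes at an unadjusted p under 0.05. What follows therefore describes where these arrays lay, and none of it is shown to be particular to NK cells. The labels tie no array to an animal. Spleen arrays 1 and 2 differ in sex-linked transcripts in all 3 cell types, so the spread behind the limma p-values includes a difference between mice, sex included. In sorted bulk cells, fewer cells of a type and less RNA per cell cannot be told apart.

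Of the 471 filtered genes, 292 (62%) did not shift alike in CDC or IKDC, meaning that neither cell type moved at least 1 log2 unit outside its own spleen arrays in the same direction. These were 143 genes above and 149 below. Another 52 genes shifted alike in both cell types, 21 above and 31 below. Of the 233 genes above in NK, 59 were also above in CDC, which is 25.3% of the NK genes and 12.9% of the CDC genes, while 4.2% of all filtered genes were above in CDC. In IKDC 52 were also above, 22.3% of the NK genes and 17.9% of the IKDC genes, against 2.66% of all filtered genes. Of the 238 genes below in NK, 57 were also below in CDC, 23.9% of the NK genes and 10.7% of the CDC genes, against 4.9% of all filtered genes. In IKDC 63 were also below, 26.5% of the NK genes and 29.6% of the IKDC genes, against 1.95% of all filtered genes. The 3 cell types have separate control arrays, but arrays of the same number deviated alike.

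**Figure D1:**
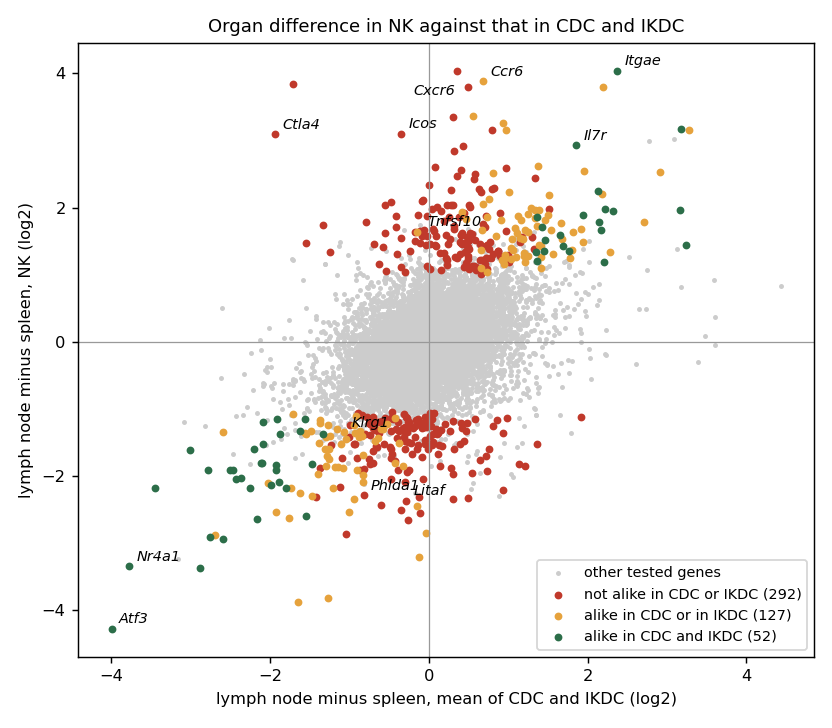
Each point is 1 of the 10916 filtered genes, with the lymph node minus spleen difference in log2 units for NK cells on the vertical axis and the mean of that difference for CDC and IKDC on the horizontal axis. Red points are the 292 genes that did not shift alike in CDC or IKDC, orange points the genes alike in 1 of them and green points the 52 genes alike in both, with Itgae at the upper right and Atf3 and Nr4a1 at the lower left.

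Among chemokine receptors, which guide lymphocytes into tissues, the lymph node NK array was high in Cxcr6 and Ccr6. Cxcr6, the receptor for CXCL16 and a marker of NK cells resident in liver, had levels of 5.57 and 6.68 on spleen NK arrays 1 and 2 and 9.92 on the lymph node array. The lymph node array stood clear of both, a 13.8-fold difference from the spleen mean, with a limma adjusted p of 0.248. A second Cxcr6 probe set also lay at least 1 log2 unit above. The lymph node CDC array had a Cxcr6 level of 4.88, between its spleen arrays. The lymph node IKDC array had a level of 6.75, which lay 0.57 log2 units above the nearer spleen IKDC array. Ccr6, the receptor for CCL20, had levels of 5.98, 6.44 and 10.09 on the 3 NK arrays, a 14.8-fold difference, and also lay 1.73 log2 units above spleen in IKDC. Cxcr3, the receptor for interferon-induced chemokines, had levels of 9.43 and 9.19 in spleen NK and 11.28 in lymph node NK. It lay above in CDC too, and in IKDC by 0.69 log2 units, short of the rule. Of 12 filtered chemokine receptor genes, 4 lay above and 1 below, with a median difference of 0.90 log2 units where the median of all filtered genes was -0.05. Gpr183, an oxysterol receptor that positions lymphocytes, was the other gene above, with levels of 8.17, 8.37 and 9.39. The gene below was Ccrl2, a non-signalling chemerin receptor, with levels of 10.62, 10.39 and 7.61, and it was lower in lymph node in all 3 cell types. Ccr7, the receptor for lymph node entry and positioning, had levels of 5.34, 3.12 and 6.22 and did not reach the rule.

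The promoter window of Cxcr6 is shown because it had the larger gap of the 2 filtered chemokine receptor genes, Cxcr6 and Gpr183, that lay above and did not shift alike in CDC or IKDC. It is the 250 bases before the RefSeq gene start in GRCm38.p6, at chr9:123806227-123806476 on the plus strand. None of the motifs searched below occurs in it, so it has no capitals.
Cxcr6: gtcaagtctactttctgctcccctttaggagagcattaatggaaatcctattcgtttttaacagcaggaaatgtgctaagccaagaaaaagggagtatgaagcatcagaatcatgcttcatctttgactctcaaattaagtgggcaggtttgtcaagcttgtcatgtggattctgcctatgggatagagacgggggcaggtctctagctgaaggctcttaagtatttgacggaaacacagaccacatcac

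The largest gap above the spleen arrays among the 471 filtered genes was that of an integrin chain. Itgae, which encodes the CD103 chain that binds E-cadherin on epithelia and marks tissue-resident lymphocytes, had levels of 6.70 and 6.86 in spleen NK and 10.82 in lymph node NK. The spleen arrays lay close together and far below the lymph node array, a 16.5-fold difference with a limma adjusted p of 0.0676. Its other probe set lay above by at least 1 log2 unit too. Itgae lay above spleen also in CDC, by 1.99 log2 units, and in IKDC, by 2.42. Itgb3, the beta 3 integrin chain, had levels of 6.67, 7.35 and 8.48 in NK, while it lay 1.70 log2 units below spleen in CDC and 1.33 below in IKDC. The other Itgb3 probe set was not above the spleen mean in lymph node NK. Cd69, which opposes egress by pulling down the sphingosine receptor S1pr1, lay below, with levels of 11.14 and 10.68 in spleen and 9.57 in lymph node. The other 25 of the 28 filtered adhesion and egress genes did not meet the rule. Itgb7, which pairs with Itgae, had levels of 10.73, 11.07 and 10.87, with lymph node between the spleen arrays. S1pr5, the egress receptor of mature NK cells, had levels of 10.23, 11.93 and 10.88, again between them. The median difference of this list was -0.16 log2 units.

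Transcripts best known from T cells were high on the lymph node NK array. Icos, an inducible costimulatory receptor, had levels of 7.78 and 8.41 in spleen NK and 11.19 in lymph node NK. All 3 Icos probe sets agreed in placing lymph node at least 1 log2 unit above, an 8.58-fold difference with a limma adjusted p of 0.19. Lymph node CDC and IKDC had Icos levels of 8.60 and 8.19 and did not lie above their spleen arrays by 1 log2 unit. Ctla4, an inhibitory receptor of the same family, had levels of 4.79, 3.87 and 7.42 in NK. Its spleen levels were under the filter level, so its difference is at least 4.32-fold when taken from that level. Cd5, a scavenger-type receptor that dampens antigen receptor signals, had levels of 4.93, 5.18 and 7.38. Of the genes for chains of the T cell receptor complex, Cd3g lay above with levels of 7.06, 7.49 and 9.31 and Cd3d with 7.24, 6.66 and 8.81. Cd247, the zeta chain that NK cells also use, was lowest in lymph node, with levels of 10.03, 9.98 and 9.19. Bcl11b, a zinc finger factor of T cell commitment, had levels of 7.45, 8.35 and 9.59.

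Of 14 filtered T cell markers, 7 lay above and 0 below, against 2.13% and 2.18% of all filtered genes. Of the 7, 6 were not alike in CDC or IKDC. Ctla4 is among them and passed the filter only through its lymph node NK value, 1 of 11 such genes among the 233 above. The median difference of the list was 1.53 log2 units, against 0.36 in CDC and -0.03 in IKDC. Cd4 was the other gene above, with levels of 4.40, 4.13 and 6.03, and it lay above in IKDC too. Cd8a was lowest in lymph node, with levels of 6.34, 7.29 and 6.03. Zap70, Lat and Cd28, signalling genes that NK cells also use in part, had lymph node levels within 0.55 log2 units of the nearer spleen array. Summed on the linear scale over the 20 genes of the list on the array, offset included, the levels gave 4546 and 4571 in spleen NK and 9101 in lymph node NK. Cd3e, Cd6 and Foxp3 met the rule but not the filter, Cd3e with levels of 5.04, 5.85 and 8.15. Tcra, Cd40lg and Cd8b1 stayed under the filter level on all NK arrays. The part of carried-over T cells in these values was not tested.

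Variable segments of the T cell receptor gamma chain were high as well. Trgv4 had levels of 4.20 and 5.90 in spleen NK and 9.09 in lymph node NK, at least 13.7-fold above the spleen level. Trgv1 had levels of 7.67, 8.00 and 10.31, a 5.54-fold difference. Such segments belong to a family of related sequences, and a probe set may pick up more than 1 of them.

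Markers of innate lymphoid cells types 2 and 3 (ILC2 and ILC3), helper-like relatives of NK cells, also lay mostly above. Of 9 filtered genes, 5 lay above and 1 below, with a median difference of 1.59 log2 units against 0.01 in CDC and 0.08 in IKDC. Cxcr6 and Ccr6, described above, belong to this list. Il17rb, a chain of the interleukin 25 receptor, had levels of 4.97, 5.91 and 8.06, a 6.16-fold difference, and also lay above in IKDC. Tmem176b, a membrane protein gene high in ILC3 and dendritic cells, had levels of 7.74, 8.26 and 10.50, and its neighbour in the genome Tmem176a had 6.86, 7.55 and 8.79. Gata3, a factor of ILC2 and of T helper cells, had levels of 7.98, 9.16 and 9.34 and did not reach the rule. The 1 gene below was Klrg1. Summed in the same way over the 13 genes of the list on the array, the levels gave 5950 and 7389 in spleen and 7995 in lymph node, a total that includes Klrg1.

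**Figure D2:**
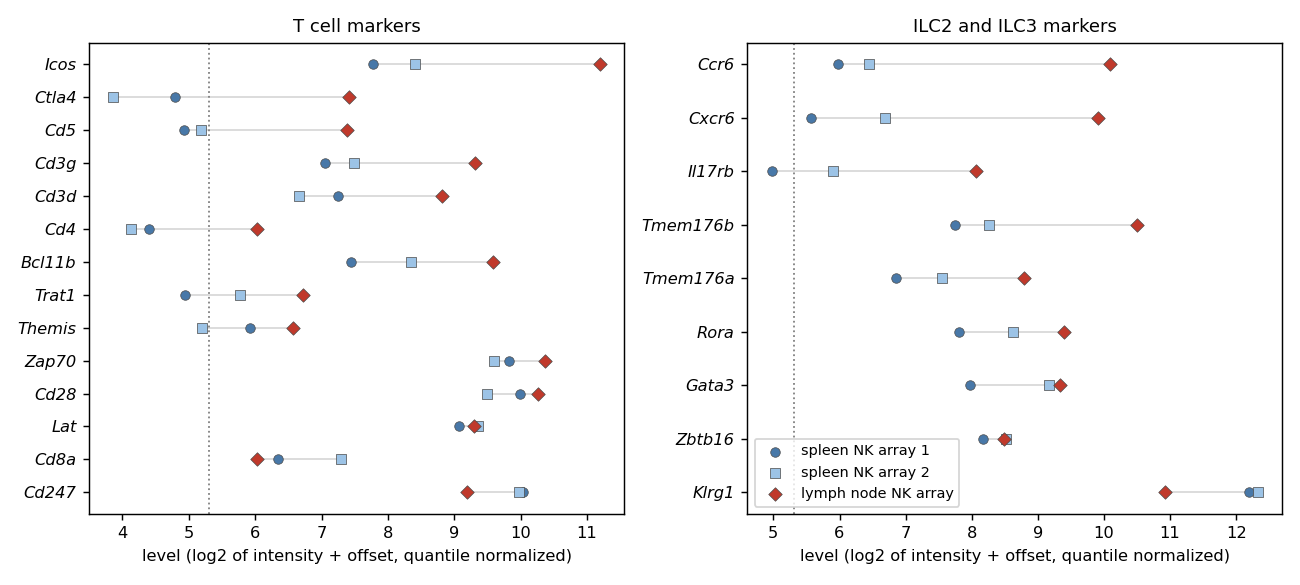
Levels of the 14 filtered T cell markers (left) and the 9 filtered ILC2 and ILC3 markers (right) on the 3 NK arrays, in log2 units, ordered by the lymph node minus spleen difference. The dotted line is the filter level of 5.31, and the lymph node array (diamond) lies to the right of both spleen arrays by at least 1 log2 unit for 7 and 5 of the genes.

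Genes of early NK stages and of NK cells carrying the interleukin 7 receptor lay above more often than below, with 7 above and 1 below of 26 filtered and a median difference of 0.63 log2 units. Il7r, whose product CD127 takes up the survival cytokine interleukin 7, had levels of 9.12 and 10.09 in spleen NK and 12.54 in lymph node NK. The lymph node array was the highest of the NK arrays by 2.45 log2 units, and the difference from the spleen mean was 7.63-fold. Il7r lay above by 2.04 log2 units in CDC and 1.01 in IKDC as well. Ikzf2, which encodes the zinc finger factor Helios, had levels of 8.13, 8.56 and 10.36 and did not shift alike in CDC or IKDC. Tnfsf10, the death ligand TRAIL that marks immature NK cells, had levels of 6.37, 5.72 and 7.69, and 1 of its 2 other probe sets lay above by 1 log2 unit. Ltb, lymphotoxin beta, had levels of 11.13, 10.37 and 12.18, and the transporter chaperone gene Emb had 9.95, 9.64 and 10.96. Il2ra, the high-affinity interleukin 2 receptor chain, had levels of 4.73, 5.03 and 7.48 and did not pass the filter. Kit, the stem cell factor receptor, had levels of 8.91, 7.90 and 8.71, so the lymph node array lay between the spleen arrays. Cd27, a receptor of the less mature stages, had levels of 9.33, 7.94 and 9.76 and lay only 0.43 log2 units above the nearer array.

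Of 25 cytokine receptor genes on the array, Il7r and Il2ra met the rule, and Il7r alone of the 24 that passed the filter. None of the 24 lay below by 1 log2 unit, and the median difference was 0.15 log2 units. Il2rb, the chain that NK cells use for interleukin 15, had levels of 10.60, 10.32 and 10.66.

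Terminal maturation genes showed 0 above and 3 below of 19 filtered, against 2.13% above and 2.18% below of all filtered genes. Klrg1, an inhibitory receptor of the most mature NK cells, had levels of 12.19 and 12.33 in spleen and 10.92 in lymph node, a 2.53-fold difference, with the lymph node array below both. Emilin2, an extracellular matrix glycoprotein gene, had levels of 10.22, 10.23 and 8.83, and both of these genes lay below in IKDC as well. Irf8, an interferon regulatory factor, had levels of 12.13, 12.42 and 11.06 and did not shift alike. The median difference of the list was -0.71 log2 units, but it was -0.18 against spleen NK array 1 and -1.07 against array 2. Itgam, which encodes Cd11b, had levels of 7.69, 9.19 and 7.49, with array 2 high and lymph node close to array 1. Zeb2, a repressor that drives the last maturation step, had levels of 10.02, 10.52 and 9.07 and lay just short of the rule.

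Most effector genes were lower in lymph node, the chemokine genes Ccl3 and Ccl4 by over 1 log2 unit. Of 24 filtered effector genes, 1 lay above and 2 below, with a median difference of -0.47 log2 units. The difference from the spleen mean was negative for 18 of the 24 and positive for 6. Among all 10916 filtered genes it was negative for 5928. The lymph node array was the lowest of the NK arrays for 15 of the 24, and for 4355 of all filtered genes. Perforin (Prf1) had levels of 11.46, 12.19 and 10.98, granzyme A (Gzma) 13.17, 13.42 and 13.12, and interferon gamma (Ifng) 11.79, 12.15 and 11.08. For each of these the lymph node array was the lowest of the NK arrays, by less than 1 log2 unit. Ccl4, an inflammatory chemokine that activated NK cells release, had levels of 12.13 and 12.50 in spleen and 9.78 in lymph node, a 5.80-fold difference with a limma adjusted p of 0.19. Ccl3, its neighbour and relative, had levels of 13.14, 13.12 and 11.52. Ccl3 lay below in CDC and IKDC too, and Ccl4 in IKDC.

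Of 23 filtered activating and inhibitory NK receptors, 0 lay above and 2 below, Klrg1 and the collagen receptor Lair1. Lair1 had levels of 8.32, 7.96 and 6.91 and was lower also in CDC, while in IKDC it lay 2.08 log2 units above spleen. Ly49 and NKG2 genes are near-identical copies, so their probe sets may share signal. Of 26 NK lineage transcription factors, 0 lay above and 2 below, Nfil3 with levels of 8.43, 8.43 and 7.07 and Runx1 with 8.57, 8.37 and 7.26. None of the 5 other Runx1 probe sets lay below by 1 log2 unit, and 2 were higher in lymph node NK than the spleen mean. Of all filtered genes, 2.13% lay above and 2.18% below. The median differences of the receptor and factor lists were -0.11 and -0.08 log2 units.

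**Figure D3:**
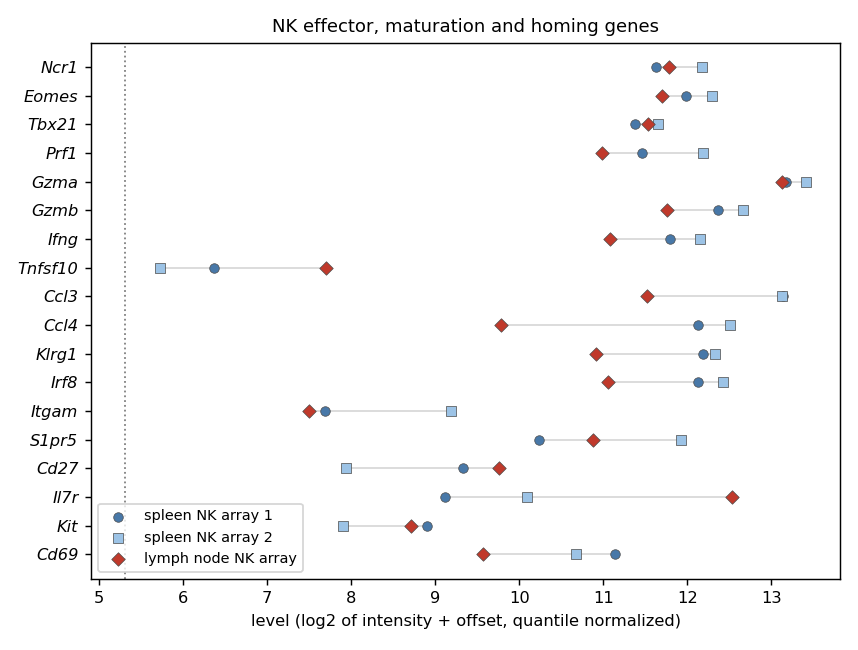
Levels of NK identity, effector, maturation and homing genes on the 3 NK arrays, in log2 units. Ncr1, Eomes and Tbx21 lie close together on all arrays, Tnfsf10 and Il7r lie to the right in lymph node (diamonds), and Ccl3, Ccl4, Klrg1, Irf8 and Cd69 lie to the left of both spleen arrays by at least 1 log2 unit.

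The remaining members with the largest gaps above that did not shift alike in CDC or IKDC have diverse functions. Adamdec1, a secreted metalloproteinase relative known from macrophages and dendritic cells, had levels of 3.83 and 4.23 in spleen NK and 7.87 in lymph node NK. It lay 2.59 log2 units below spleen in CDC. Adgre4, an adhesion receptor of myeloid cells related to F4/80, had levels of 4.05, 3.42 and 7.08. Cysltr1, a receptor for cysteinyl leukotrienes, had levels of 3.71, 4.37 and 7.20, and its other probe set lay above too. Cysltr1 passed the filter only through its lymph node NK value. For these 3 genes both spleen arrays were under the filter level, and the lymph node array stood at least 3.41-fold above that level. Slco3a1, an organic anion transporter, had levels of 5.63, 6.45 and 8.89, and both of its other probe sets lay above by 1 log2 unit. Sema4f, a semaphorin, had levels of 6.84, 6.89 and 9.14. Abca3, a lipid transporter, had levels of 3.27, 3.50 and 6.31, and neither of its 2 other probe sets reached 1 log2 unit. Hebp1, a heme-binding protein gene, had levels of 3.11, 3.42 and 5.86.

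Among members below that did not shift alike, Litaf and Phlda1 were well above the filter level on all 3 NK arrays. Litaf, a late endosomal membrane protein gene induced by lipopolysaccharide in macrophages, had levels of 11.17 and 10.85 in spleen NK and 8.64 in lymph node NK, a 5.16-fold difference with a limma adjusted p of 0.19. Its other probe set lay below by at least 1 log2 unit. Phlda1, a pleckstrin homology-like protein gene induced by growth factor and antigen receptor signals, had levels of 10.08, 9.95 and 7.73, and lay 0.90 log2 units below in IKDC. Acad10, a mitochondrial acyl-CoA dehydrogenase relative, had levels of 8.03, 7.63 and 5.50, but its other probe set was higher in lymph node. Mcam, the adhesion molecule CD146, had levels of 8.32, 9.47 and 6.46. On the probe sets used for Acad10 and Mcam, all 3 arrays were above the filter level and the lymph node array was the lowest. The 8 others named by the size of their gap are Jph4, Psrc1, Glb1l, Lzts3, Renbp, Sfrp5, Hyal2 and Wdfy3. Their spleen levels ran from 5.75 (Sfrp5) to 6.91 (Renbp), and their lymph node levels were under the filter level, from 3.54 (Psrc1) to 4.05 (Glb1l). Near that level, differences rest on weak signal. The other probe set of Glb1l, that of Sfrp5 and 2 of the 4 others of Wdfy3 were higher in lymph node NK than the spleen mean. Over all 471 genes, the lower side was under the filter level for 72 genes above and 91 below. Of the 154 genes above that had another probe set, 44 showed the same shift of 1 log2 unit on at least 1 of them, and of 125 genes below, 37 did.

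**Figure D4:**
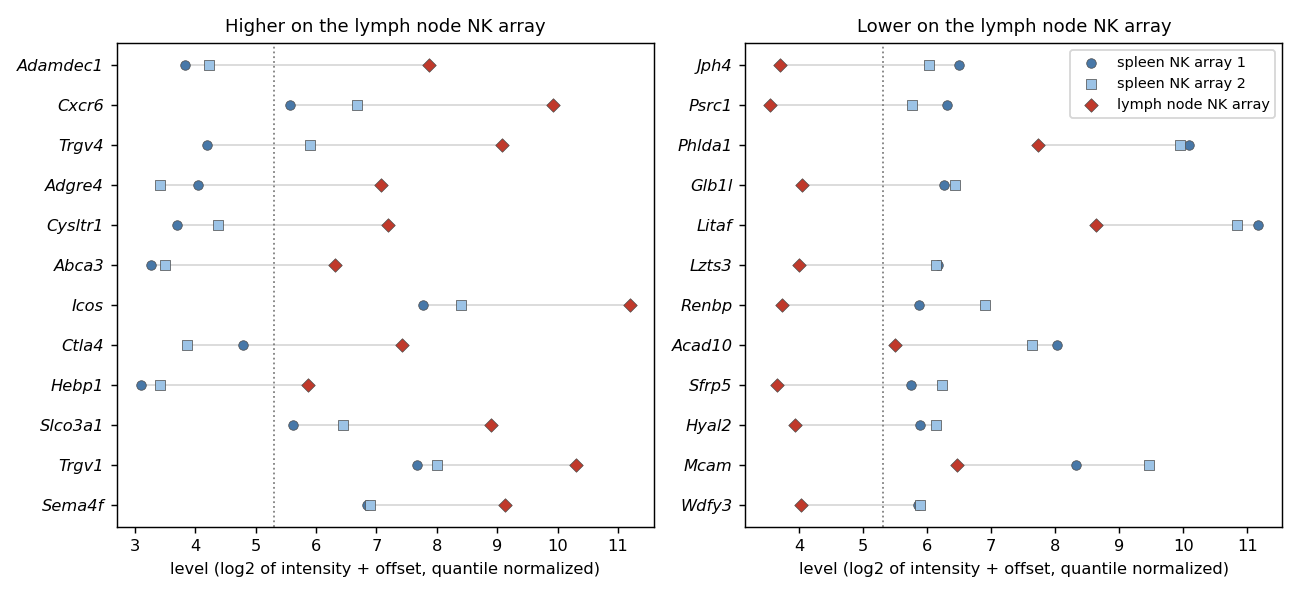
Levels on the 3 NK arrays, in log2 units, of the 12 genes above (left) and the 12 below (right) with the largest distance between the lymph node array and the nearer spleen array among filtered genes that did not shift alike in CDC or IKDC. The dotted line is the filter level of 5.31. Cxcr6, Icos, Slco3a1, Trgv1, Sema4f, Litaf, Phlda1, Acad10 and Mcam lie above it on all 3 arrays.

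The genes lower in lymph node in all 3 cell types included many immediate early genes, which are transcribed within minutes of a stimulus. Atf3, a stress-induced repressor, had levels of 9.56 and 9.22 in spleen NK and 5.11 in lymph node NK, at least 16.9-fold lower. It was 4.07 log2 units lower in CDC and 3.46 lower in IKDC than the nearer spleen array. Nr4a1, an orphan nuclear receptor induced by antigen receptor signals, had levels of 12.20 and 12.10 in spleen and 8.81 in lymph node, a 10.1-fold difference with a limma adjusted p of 0.0676. Fosb, a part of the AP-1 factor, had levels of 11.06, 10.87 and 8.78. Maff, a small Maf factor, had levels of 9.67, 8.54 and 5.73. For each of these the lymph node array lay below both spleen arrays in all 3 cell types. Gadd45b, a growth arrest gene, had levels of 10.64, 10.19 and 7.57 in NK and lay below in IKDC, but in CDC it lay 1.71 log2 units above spleen.

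Of 37 filtered immediate early genes, 0 lay above and 18 below in NK, 11 of them alike in both CDC and IKDC. In CDC 23 of the 37 lay below and in IKDC 21. Of all filtered genes, 2.18% lay below in NK, 4.9% in CDC and 1.95% in IKDC. The median difference was -1.26 log2 units in NK, -1.77 in CDC and -1.49 in IKDC. Fosl2 alone of the 18 was counted as not alike in either, with levels of 10.31, 10.27 and 8.76 in NK. Fos itself, with levels of 12.72, 12.84 and 12.42, lay 0.30 log2 units below and did not meet the rule.

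**Figure D5:**
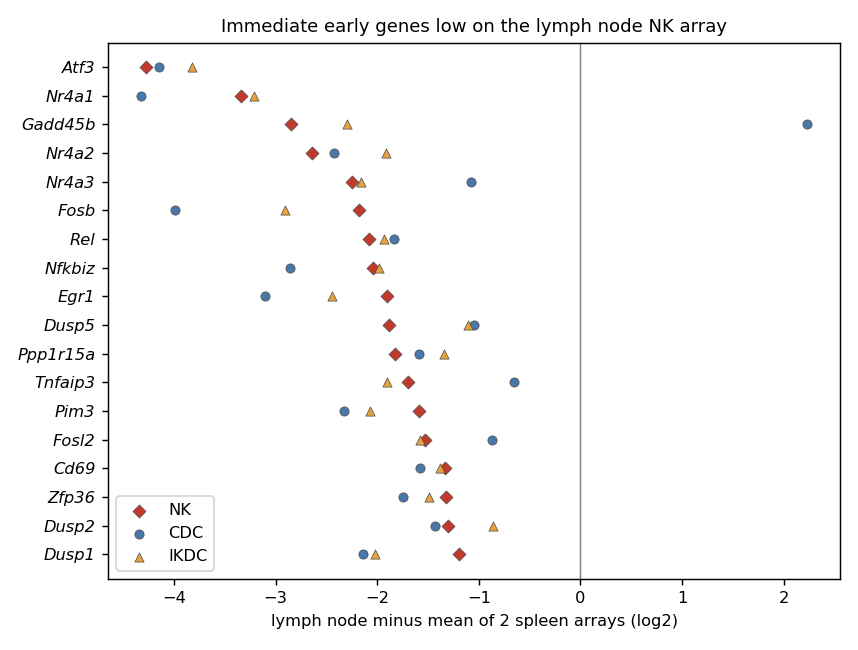
Lymph node minus mean spleen level, in log2 units, for the 18 immediate early genes that lay at least 1 log2 unit below both spleen arrays in NK, with NK cells as diamonds, CDC as circles and IKDC as triangles. All values are negative except that of Gadd45b in CDC.

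The promoters of genes low in lymph node in all 3 cell types were searched for the cAMP response element, the site of CREB and ATF factors that drives many immediate early genes. The windows were the 250 bases before each RefSeq gene start in GRCm38.p6, read on both strands. TGACGTCA was found in 5 of the 24 genes with a window that lay below in NK and alike in CDC and IKDC (20.8%), and in 1.77% of all 27018 genes with a window. Among genes above in NK it was found in 3 of 182 (1.65%), and among genes below that did not shift alike in 5 of 123 (4.07%). With the second base open (TNACGTCA, which includes the first motif), the shares were 33.3% of the 24 genes and 2.92% of all. A shortened form, TGACGCA, was found in 4 of the 24 (16.7%) and 2% of all. These latter forms were chosen after the windows had been read. Of the 15 immediate early members below that had a window, 2 held TGACGTCA, 5 held TNACGTCA and 2 held TGACGCA. The other 8, Nr4a2, Nr4a3, Gadd45b, Pim3, Zfp36, Dusp2, Fosl2 and Tnfaip3, held none of these forms. For comparison, the AP-1 element TGACTCA was found in 4.17% of the 24 genes and 5.16% of all, and the T-box site AGGTGTGA in 0% of the 182 genes above and 1.3% of all. A match is a description of the letters and not of factor binding.

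The windows of 5 of the 7 immediate early members with a match are printed 5′ to 3′ on the gene's strand, with matches to TNACGTCA or TGACGCA, on either strand, in capitals. Nr4a1 lies at chr15:101266596-101266845 on the plus strand and holds 4 matches. Atf3 lies at chr1:191183334-191183583 on the minus strand and holds 1 match that begins 10 bases before the start. Fosb lies at chr7:19310046-19310295 on the minus strand with a match 60 bases before it. Ppp1r15a, a phosphatase subunit gene of the stress response, lies at chr7:45526269-45526518 on the minus strand with a match 12 bases before the start. Dusp1, a MAP kinase phosphatase gene, lies at chr17:26508473-26508722 on the minus strand with a match 143 bases before the start.
Nr4a1: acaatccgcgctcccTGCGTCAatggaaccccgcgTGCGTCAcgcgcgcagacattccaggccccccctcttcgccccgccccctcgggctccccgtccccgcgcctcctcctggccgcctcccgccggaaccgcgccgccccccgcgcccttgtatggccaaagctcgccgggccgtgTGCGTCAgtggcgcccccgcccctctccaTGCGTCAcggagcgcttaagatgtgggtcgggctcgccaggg
Atf3: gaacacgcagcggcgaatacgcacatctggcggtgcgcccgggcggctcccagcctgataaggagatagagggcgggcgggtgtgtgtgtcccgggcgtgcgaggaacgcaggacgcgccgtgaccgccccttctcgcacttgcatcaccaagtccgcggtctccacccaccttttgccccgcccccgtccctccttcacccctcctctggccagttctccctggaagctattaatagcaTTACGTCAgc
Fosb: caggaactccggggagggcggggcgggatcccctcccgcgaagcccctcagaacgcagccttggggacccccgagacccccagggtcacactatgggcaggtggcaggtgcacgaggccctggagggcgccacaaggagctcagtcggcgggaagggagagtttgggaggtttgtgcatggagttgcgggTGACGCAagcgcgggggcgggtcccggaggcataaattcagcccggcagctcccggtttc
Ppp1r15a: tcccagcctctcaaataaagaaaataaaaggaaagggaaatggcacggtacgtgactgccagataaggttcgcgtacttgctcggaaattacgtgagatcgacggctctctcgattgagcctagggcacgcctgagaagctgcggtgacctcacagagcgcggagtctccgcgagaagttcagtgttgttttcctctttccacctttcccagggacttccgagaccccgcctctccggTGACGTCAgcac
Dusp1: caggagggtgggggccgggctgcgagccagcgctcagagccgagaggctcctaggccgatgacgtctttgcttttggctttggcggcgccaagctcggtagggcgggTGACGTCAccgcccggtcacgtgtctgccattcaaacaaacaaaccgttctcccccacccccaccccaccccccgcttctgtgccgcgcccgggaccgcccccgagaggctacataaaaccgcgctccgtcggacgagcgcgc
Beside these sequences, Ppp1r15a had levels of 11.26, 11.01 and 9.31 on the NK arrays and Dusp1 had 12.81, 12.92 and 11.67. Both lay below the spleen arrays in all 3 cell types.

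Of the genes alike in both cell types in the upward direction, Il22ra2 encodes a soluble receptor that binds interleukin 22, and had levels of 4.80, 3.47 and 7.31. Il22ra2 passed the filter only through its lymph node NK value. Dennd6b, a guanine exchange factor gene, had levels of 6.27, 5.43 and 8.10, and none of its 3 other probe sets lay above by 1 log2 unit. Migratory dendritic cell genes were also alike in part. Of 14 filtered, 3 lay above in NK and 6 in CDC, against 2.13% and 4.2% of all filtered genes. The median difference in NK was 0.52 log2 units, with 13 of the 14 positive, against 4988 of all 10916 filtered genes. Socs2, a cytokine signalling inhibitor gene, had levels of 5.36, 6.29 and 8.03 in NK, and Fscn1, an actin-bundling gene, had 5.66, 7.09 and 8.34. The probe sets of Fscn1 disagreed, since 1 of its 3 others lay below by at least 1 log2 unit. None of the 5 other Socs2 probe sets lay above by 1 log2 unit, and 4 of them were higher in lymph node NK than the spleen mean. Fcrla, a B lineage gene, lay above in all 3 cell types with NK levels of 3.82, 4.14 and 5.43, the last just over the filter level.

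Some transcripts of other cells moved with the lymph node array. Glycam1, a mucin of the high endothelial venules through which lymphocytes enter lymph nodes, had levels of 3.29 and 2.97 in spleen NK and 11.30 in lymph node NK. It had levels of 8.08 in lymph node IKDC and 5.08 in lymph node CDC. Its mean over the 9 arrays was under the filter. Madcam1, another venule gene, had levels of 4.84, 5.03 and 6.23, and Col3a1 had 4.47, 4.04 and 5.55. Of the 8 filtered stromal and endothelial markers, 0 lay above and 0 below, and Pecam1, Esam and Cxcl13 were lowest on the lymph node NK array. Summed on the linear scale over the 22 stromal markers on the array, offset included, the levels gave 757 and 1335 in spleen NK and 3432 in lymph node NK. Most of that lymph node total was Glycam1, and without this gene the total lay between those of the spleen arrays. The part of carried-over stromal RNA in the other differences was not tested.

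Counts of the other dendritic and myeloid markers stand beside 2.13% above and 2.18% below among all filtered genes. Of 13 filtered class II presentation genes and 13 plasmacytoid dendritic cell markers, 0 lay above and 0 below. Of 20 macrophage and monocyte markers, 1 lay below, Cd68, with levels of 7.08, 7.60 and 5.83. Of 5 neutrophil markers, 1 lay above, Mmp9, with levels of 5.06, 5.42 and 6.86. Of 19 conventional dendritic cell markers, 2 lay above and 1 below. Ly75, the endocytic receptor DEC-205, had levels of 6.63, 6.35 and 8.31, and Cd24a had 6.91, 7.83 and 8.91. Basophil and mast cell markers were high on spleen NK array 2, as Cpa3 shows with levels of 6.01, 9.41 and 7.44, so none of the 4 filtered met the rule.

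Members under the filter include further receptors and ligands, chosen after their values were seen. Bmp2, a bone morphogenetic protein, had levels of 3.80 and 4.65 in spleen NK and 8.53 in lymph node NK, while it was lower in lymph node than in spleen CDC. Il2, the T cell growth factor, had levels of 3.98, 2.87 and 7.48. Gpr15, a homing receptor for colon and skin, had levels of 4.57, 4.34 and 8.19. Ltb4r1, a leukotriene B4 receptor, had levels of 2.94, 4.49 and 7.89 in NK and lay above in CDC too. In each the lymph node NK array stood over 3 log2 units above the nearer spleen array and both spleen arrays were under the filter level.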

How the data were processed

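Affymetrix arrays of 3 sorted cell types from 2 organs were analysed, 9 arrays in 6 groups. Per the labels, RNA was extracted with TRIzol and RNeasy columns and biotinylated cRNA was made from 6 ug of total RNA. Each deposited value is the signal intensity of a probe set on a linear scale, which the authors had scaled so that the mean between the 2nd and 98th percentiles is 150.001 on every array. No source used here names the software. The median intensity per array ran from 23.4 to 41.3, and the number of arrays limits the precision.

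From these values, the 20th percentile of all values (6.49) was added, log2 taken and the arrays quantile normalized. The table held 45101 probe sets, of which 64 were controls, 34945 carried 1 gene symbol, 932 several and 9160 none. The symbols come from the platform annotation, and 34741 probe sets matched a RefSeq gene ID. Each of 18193 genes was represented by its single-symbol probe set with the highest mean, and 10916 genes were tested, those whose mean reached its 40th percentile (5.31). A fold on this scale understates the change of low genes. Where a side was under 5.31, the fold of a single gene was taken from that level and written as at least. A fold is otherwise the lymph node array against the mean of both spleen NK arrays.

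limma 3.58.1 in R 4.3.3 was fitted to all 6 groups with lmFit and eBayes with a trend, with 3 residual and 3.44 prior degrees of freedom, two-sided, with Benjamini-Hochberg adjustment over the 10916 genes. The fit was run on simulated data with independent noise on each array. Those data left out the shared deviations of same-numbered spleen arrays, so they cannot show how the p-values hold under them. Promoter windows came from RefSeq, build GRCm38.p6.

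The genes named are the 12 largest gaps in each direction among filtered genes not alike in CDC or IKDC, 4 in each direction alike in both, up to 4 members of each list and a set of fixed genes, leaving out predicted genes. Other list genes were added to complete a count and were chosen after their values were seen. The genes and lists were chosen with earlier results of these data known. The alternatives were other scalings, offsets, filters, distances and probe set summaries, other spread settings, replicate blocks and leaving out each spleen array.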

Additional observations from a re-analysis of the deposited data

Results flagged for a closer look

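Ctla4 and Itgb3 stood apart because the lymph node array lay at least 1 log2 unit above both spleen arrays in NK and at least 1 log2 unit below both in CDC and in IKDC. The lymph node minus mean spleen difference of Ctla4 was 3.09 log2 units in NK, -1.73 in CDC and -2.14 in IKDC. For Itgb3, whose other probe set was not above the spleen mean in lymph node NK, that difference was 1.47 in NK. The difference between NK and the mean of the other cell types was tested for both in limma, with an adjusted p of 0.847 for each, so neither was called. Both were picked for the pattern that this test asks about, so the p is no independent evidence. Ctla4 passed the filter only through its lymph node NK value. It had a level of 7.42 on the lymph node NK array and levels under 5.31 on both spleen NK arrays. Each lymph node group has 1 array, so the contrast rests on 3 lymph node arrays.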

How the results depend on the processing

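The count of 0 genes called between lymph node and spleen NK was also 0 in the values as deposited, with a shift to the same 75th percentile, with other offsets, with the mean of all probe sets, without an intensity trend, with a robust prior and without any of the spleen arrays in turn. It was 1 with no filter on the mean level (Glycam1), 3 with a filter at the 60th percentile (Atf3, Itgae and Nr4a1) and 3 with the NK arrays alone. With the replicate number as a block (replicate block) it was 15 with the lymph node arrays midway, 14 with them counted under number 1 and 3 under number 2. These paired fits assume that a number marks shared mice or a shared sort. The labels do not say so, but Xist was low on array 1 and high on array 2 in all 3 cell types (6.02 and 12.49 in CDC, 6.36 and 11.96 in NK, 6.07 and 11.43 in IKDC), and Eif2s3y the reverse. The lymph node arrays, at 12.05 to 12.19, were like arrays 2 in Xist. Deviations of same-numbered spleen arrays correlated across genes at 0.412 (NK with CDC), 0.485 (NK with IKDC) and 0.529 (IKDC with CDC). The count of 0 genes whose organ difference in NK was called apart from CDC and IKDC was 0 in each of these fits that gave it.

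The 471 genes at least 1 log2 outside both spleen arrays became 1065 with no filter, 209 with a filter at the 60th percentile, 1955 at a distance of 0.5 log2 and 63 at 2 log2. Leaving out 1 spleen NK array gave 1156 to 1215, because 1 array is then enough to lie outside. Of the 471, 409 stayed members in the values as deposited, 443 with the 75th percentile shift, 471 and 317 with offsets at the 10th and 40th percentiles and 281 with the mean of all probe sets. The 75th percentile shift moved the median of all genes to -0.15. The 292 genes not alike became 762 with no filter, 106 with the stricter filter, 868 to 882 without 1 spleen NK array and 181 when 0.5 log2 counted as alike. Of the alternatives for named genes, 986 kept their side of the threshold and 27 came past it. A turn of direction was counted only for genes that met the rule, and 1 was found. Rab7b was 0.018 with the mean of all probe sets against -1.51. Turns of other named genes are within the 986. Itgax, for example, lay below spleen NK array 1 and above array 2 in lymph node, so its direction depends on the array left out. The cause was not tested. Weak signal limits the genes near the filter level.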

Other observations

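Proliferation genes differed between the spleen NK arrays, and lymph node lay near array 2. Of 38 filtered proliferation genes, 0 lay above and 1 below, Stmn1, a microtubule regulator of dividing cells, with levels of 12.30, 12.16 and 11.10 on spleen NK arrays 1 and 2 and the lymph node array. The difference from the spleen mean was negative for 36 of the 38, against 5928 of all 10916 filtered genes. The median difference of the list was -1.51 log2 units against spleen NK array 1 and -0.085 against array 2. Mki67, a gene of cycling cells, had levels of 11.06, 8.71 and 8.94, so spleen array 1 alone was high.

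Counts in 4 further lists can be read against 2.13% above and 2.18% below among all filtered genes. Of 33 filtered type I interferon response genes, 1 lay above and 0 below. It was Ifi27l2a, with levels of 7.77, 6.99 and 8.95. Of 17 heat shock genes, Hspa1b lay above, with levels of 7.92, 8.35 and 9.56, and Dnajb4 lay below, with 10.39, 10.15 and 8.36. Neither of the 2 other Hspa1b probe sets lay above by 1 log2 unit. Of the 2 others of Dnajb4, 1 lay below by that distance and 1 was higher than the spleen mean. Of 15 glycolysis and lactate genes, Pdk1, a kinase that holds pyruvate out of mitochondria, lay above with levels of 5.43, 5.52 and 6.94. None of the 3 other Pdk1 probe sets lay above by 1 log2 unit. The 7 filtered erythroid and platelet markers did not meet the rule in either direction.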
